A study of Homo sapiens with 2 samples.

Results

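Distal 8q is the outer part of the long arm of chromosome 8, from the inner edge of band q13.1 to the chromosome end. The regions described here are the TRF2 peaks of the deposited list on this stretch, taken as every peak on chromosome 8 with its summit from 65.1 Mb to the chromosome end in the human assembly hg38. The rule used position alone and gave 534 of the 24258 peaks in the list. By general knowledge of the cell line this stretch is present in extra copies in HCT116, and copy number was not measured here. The study mapped TRF2 by chromatin immunoprecipitation and sequencing in HCT116, an established colorectal carcinoma line. It had 1 library immunoprecipitated with an antibody to TRF2 and 1 input library of the same line with no antibody, both from formaldehyde-fixed chromatin of cells with no genotype or treatment named in the labels. The name of the peak list mentions a control siRNA, so whether the cells had been transfected is unsettled. Each group being a single library, differences between samples have no test here, and every interval below covers counting error only. Intervals are exact at 95%, Poisson for counts per Mb, conditional binomial for ratios of 2 densities and binomial for shares.

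TRF2, encoded by TERF2, is a subunit of shelterin, the complex that coats the double-stranded repeats of telomeres and keeps chromosome ends from being treated as breaks. Its partner TRF1, encoded by TERF1, binds the same repeats, and the TERF1 gene itself lies on distal 8q. Along the arm, gene-rich light Giemsa bands alternate with dark bands that are AT-rich and hold few genes, and long stretches without protein-coding genes are called gene deserts. The distal part of the arm also carries MYC, a growth-promoting transcription factor gene that sits beside a large desert and is often gained together with it in colorectal cancer.

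Distal 8q held 6.67 peaks per Mb (interval 6.12 to 7.26), against 1.06 (1.02 to 1.10) on all other chromosome arms, outside centromeres, their 2 Mb flanks and heterochromatin bands. The ratio of the densities was 6.29 (5.72 to 6.90). Set against the rest of chromosome 8 the contrast was sharp, since the inner part of 8q had 21 peaks in 15.9 Mb, or 1.32 per Mb (0.818 to 2.02), and 8p had 29 in 41.2 Mb, or 0.704 per Mb (0.471 to 1.01). A pair of other stretches known to be gained in this line were compared as well. The bands q24 to q26 of chromosome 10 held 129 peaks at 3.35 per Mb (2.80 to 3.98), and the bands q21 to q25 of chromosome 17 held 101 at 2.32 per Mb (1.89 to 2.82). Distal 8q was 1.99 times as dense as the first (1.64 to 2.43) and 2.87 times as dense as the second (2.32 to 3.59). The arms that remained after leaving out chromosome 8 and these parts had 1.01 per Mb (0.970 to 1.05).

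The peaks of distal 8q were narrow and shallow. Their width had a median of 72 bp and ran from 69 to 353 bp, and 251 of the 534 were at the shortest width. Together they covered 47.7 kb. Fold over input, as the authors' peak caller gave it, was 3.41 in the median (quartiles 3.41 and 3.90), and ran from 2.74 to 20.1. Summits were 6 immunoprecipitated reads deep in the median (quartiles 6 and 7), a number worked out from the deposited fold and p. At 447 of the 534 peaks, or 83.7% (80.3% to 86.7%), the input background stood at its lowest value in the list, 1.05 reads. On the other arms 2121 of 2844 peaks did so (74.6%, 72.9% to 76.2%). The share was close to that of distal 8q on 17q21 to q25 (83.2%), inner 8q (85.7%) and 8p (82.8%), and lower on 10q24 to q26 (65.9%).

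The fold adds 1 to both the reads and the background before dividing, so it is lower than their plain ratio. With the background at this minimum, a fold takes only fixed steps that go with whole reads. On distal 8q there were 61 such peaks of 5 reads (fold 2.93), 176 of 6 reads (3.41), 138 of 7 reads (3.90), 45 of 8 reads (4.39) and 18 of 9 reads (4.88). Whatever the background, 516 peaks (96.6%) had 5 to 9 reads and 18 (3.37%) had 10 or more, against 82.1% and 17.9% on the other arms. Few peaks of 10 or more reads were likewise found on 17q21 to q25 (1.98%) and inner 8q (4.76%, 1 peak), whereas 10q24 to q26 had 13.2%. The excess of distal 8q lay mostly at the shallow end of the list. Peaks of 5 to 9 reads were 7.40 times as dense there as on the other arms (6.72 to 8.15). For peaks of 10 or more reads the ratio was 1.18 (0.695 to 1.89), so no excess was detectable in that class as a whole. With the background at its minimum, 6 peaks of 14 or more reads on distal 8q stood against 60 on the other arms, a ratio of 3.35 (1.18 to 7.73), and 4 of the 6 lay in TERF1. Among single depths the ratio ran from 5.79 (4.37 to 7.57) at 5 reads to 8.52 (7.27 to 9.94) at 6 reads.

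**Figure D1:**
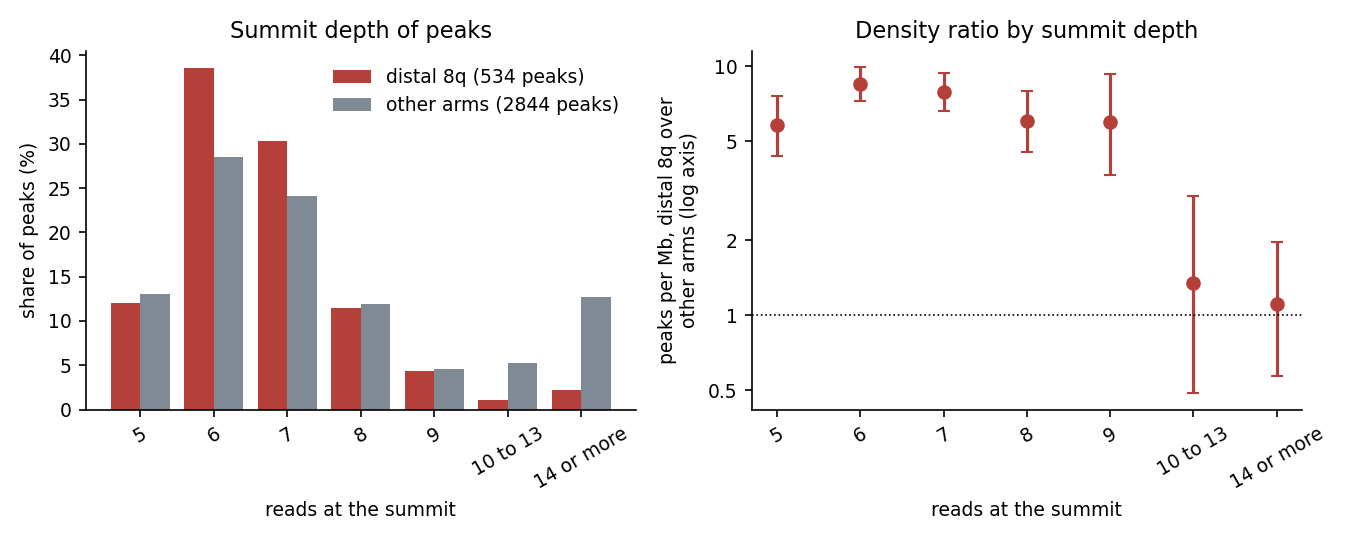
Left, the share of peaks (%) by reads at the summit, for distal 8q and for the other chromosome arms. Right, peaks per Mb on distal 8q over the other arms in each class, on a log axis, with exact 95% intervals that cover counting error only; the classes of 5 to 9 reads lie between 5.79 and 8.52, and those of 10 to 13 and of 14 or more reads at 1.35 and 1.11.

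Peaks reaching a −log10 q of 5, called strong below, numbered 13 on distal 8q (2.43%, 1.30% to 4.13%). The same rule called 30% of all deposited peaks and 13.9% of those on the other arms, with 0.990% on 17q21 to q25, 4.76% on inner 8q and 10.9% on 10q24 to q26. A q-value under 0.05 was reached by 253 of the 534 (47.4%, 43.1% to 51.7%), against 56.1% on the other arms and 79.3% of the whole list. A fold of 5 or more was reached by 14 peaks, or 2.62%, against 10.9% on the other arms and 25.2% of the whole list.

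TERF1 accounted for 7 of the 13 strong peaks and for 6 of the 10 of highest fold. The gene (chromosome 8, 73008864 to 73048123) carried 8 summits within 39.3 kb, a density of 177 per Mb (76.3 to 348). Its strongest peak, from 73045963 to 73046315, had a fold of 20.1 and 53 reads, and next came peaks of fold 15.6 at 73026935 to 73027048 and 73039126 to 73039220. Among the 526 peaks away from TERF1 the fold was 3.41 in the median and 13.7 at most.

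Of the 6 strong peaks elsewhere, 4 lay in gene deserts, as did 275 of all 534 peaks (51.5%). The highest, from 110728346 to 110728434 in band q23.2, had a fold of 13.7 and 27 reads over a background at its minimum. No annotated gene covered it, and it was 753 kb from KCNV1, a modifier subunit of voltage-gated potassium channels, and 1495 kb from CSMD3, a large gene for a transmembrane protein with CUB and sushi domains. The next, from 119404656 to 119404736 in q24.12, had a fold of 11.7 and 23 reads, also over the minimum background. It lay in the long non-coding RNA gene LOC124902009, 11.8 kb from CCN3, which encodes a secreted matricellular protein. A peak in q22.1, from 93337323 to 93337399, had a fold of 9.79 and 29 reads over a background of 2.06, within 2 long non-coding RNA genes between TRIQK and CIBAR1.

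The remaining 3 strong peaks had lower folds. That at 88881380 to 88881455, in the non-coding gene LOC105375630 between MMP16 and RIPK2, had a fold of 6.70 and 13 reads. That at 81842451 to 81842536 had its summit 0.314 kb outside SNX16, a sorting nexin gene of endosomal traffic, and had a fold of 5.93 with 25 reads over a background of 3.38. At 85769583 to 85769669 in q21.2 the fold was only 3.71, with 44 reads over an input background of 11.1. A neighbour 4.10 kb away, at 85773681 to 85773874, had 40 reads over 13.9, the highest background of any peak on distal 8q. Between −log10 q of 3 and 5 there were 23 further peaks, and 281 of the 534 had a q-value of 0.05 or above.

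Peaks were spread along most of the stretch rather than packed into clusters. The spacing of neighbouring summits had a median of 67 kb (quartiles 28.3 and 161 kb), from 304 bp to 1613 kb. Joining summits within 10 kb of each other left 468 loci, of which 410 held 1 summit and 55 held 2. The 3 larger loci were the 8 summits of TERF1, 3 summits over C8orf34 from 68688009 to 68697589, and 3 over TBC1D31, a centrosomal protein gene, from 123108097 to 123118878. The widest gap, between the summits at 100181877 and 101794776, ran over RNF19A, a ubiquitin ligase gene, PABPC1, the cytoplasmic poly(A)-binding protein gene, and GRHL2, an epithelial transcription factor gene.

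In 1 Mb windows the counts were uneven. Over 79 full windows the median was 6 summits, with a lowest of 0 and a highest of 23, and the variance was 3.86 times the mean of 6.73. The 10 fullest windows held 169 summits (31.6%, 27.7% to 35.8%) in 12.5% of the length. They were picked for their counts, so a share above that of the length was fixed in advance and is description only. The fullest, from 68 to 69 Mb in band q13.2, had 23 summits (14.6 to 34.5). Of these, 12 lay in C8orf34, 3 in PREX2, a guanine nucleotide exchange factor gene for Rac, and 8 outside both genes. After it came the windows starting at 113 Mb (20 summits), 84 Mb (19), 114 Mb (18), 110 Mb (17), 112 Mb (16), and 83 and 115 Mb (15 each).

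**Figure D2:**
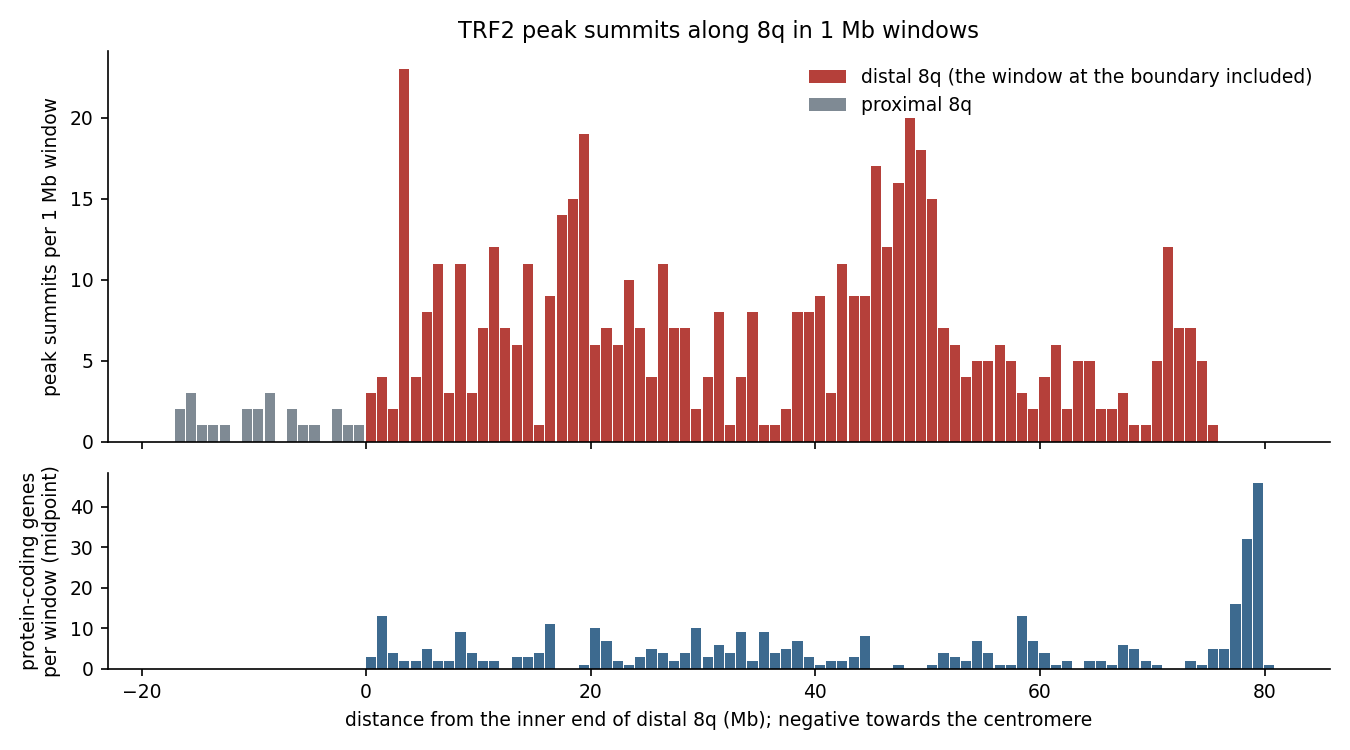
Upper panel, peak summits in each 1 Mb window along 8q, with distal 8q in red and the inner part of the arm in grey; the window that holds the boundary is drawn whole, in red. Lower panel, protein-coding genes with their midpoint in each window of distal 8q. Counts reach 23 summits near the inner end and are 0 over the gene-rich outer end.

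Next to the inner edge of q13.1 the density was below the mean of distal 8q. In the 15 windows from 50 to 65 Mb the median was 1 summit and the highest 3. In the 3 windows from 65 to 68 Mb, the first of which holds the edge, the median was 3 and the highest 4. From the inner edge to 68 Mb there were 8 summits in 2.90 Mb, or 2.76 per Mb (1.19 to 5.44), an interval that overlaps that of the inner part of 8q. The next window had 23 summits, and over the 26 windows from 68 to 94 Mb the median was 7. From 68 to 141 Mb the density was 7.21 per Mb (6.60 to 7.85), and this stretch held 526 of the 534 peaks. The position of 68 Mb was chosen after the counts were seen.

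From there outwards, dense and sparse stretches alternated. From 82 to 85 Mb the density was 16.0 per Mb (11.8 to 21.2), and from 94 to 103 Mb it was 3.44 (2.34 to 4.89). It was 16.3 (13.3 to 19.9) from 110 to 116 Mb, where 98 summits lay, and 3.89 (3.06 to 4.89) from 116 to 135 Mb. Both dense stretches had 0.333 protein-coding genes per Mb, against 5.78 per Mb from 94 to 103 Mb and 3.53 per Mb from 116 to 135 Mb. These limits too were set after the counts were seen. By band, density was highest in q23.3, with 87 summits at 15.5 per Mb (12.4 to 19.2), then in q21.2 (13.8, 9.46 to 19.3) and q23.2 (13.1, 8.12 to 20.1). It was lowest, among bands of over 1 Mb, in q24.3 (0.962, 0.353 to 2.09) and q24.22 (2.0, 0.959 to 3.68).

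The outer end of 8q, which is the gene-richest part of the stretch, had no peak. The last one, from 140917810 to 140917879, lay in PTK2, the focal adhesion kinase gene, with a fold of 3.90 and 7 reads. Beyond its summit 4.22 Mb remained to the chromosome end, holding 100 protein-coding genes and 0 summits. A count of 0 allows up to 0.711 per Mb by the limit of 3 counts, and the upper end of the exact interval is 0.874 per Mb. This length was set to begin at the last summit, so its count of 0 was fixed and these limits are description only. At the mean density of distal 8q this length would hold 28.2. Among its genes are PLEC, which links intermediate filaments to junctions, SCRIB, a cell polarity gene, GSDMD, which encodes the pore-forming protein of pyroptosis, and RECQL4, a DNA helicase gene. Windows with at most 1 summit numbered 12, namely the 5 from 141 Mb to the end with 0 and those starting at 80, 97, 100, 101, 133, 134 and 140 Mb with 1.

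Gene-poor windows carried more peaks. Full windows with 0 protein-coding genes, by gene midpoint, averaged 12.7 summits (10.6 to 15.1, 10 windows, range 5 to 20). Windows with 1 or 2 genes averaged 7.64 (6.65 to 8.74, 28 windows), those with 3 to 5 genes 4.74 (3.89 to 5.72, 23 windows), those with 6 to 9 genes 5.80 (4.40 to 7.50, 10 windows) and those with 10 or more 3.0 (1.92 to 4.46, 8 windows). The class of 6 to 9 genes includes the window starting at 73 Mb, where 8 of 11 summits lay in TERF1. Across the 79 windows, which share 1 pair of libraries, Pearson's r between summits and genes was -0.38 and Spearman's rho -0.50. Without the 8 windows of 10 or more genes they were -0.40 and -0.44. The relation with the share of the window covered by protein-coding genes was weaker, at -0.17 and -0.23. Dark bands (the 2 darkest Giemsa classes) had 9.30 summits per Mb and light bands 4.73, a ratio of 1.96 (1.62 to 2.39). This pattern had exceptions, since q21.2 and q23.2 are light bands of high density and q21.11, one of the darkest class, had 5.38 per Mb (2.94 to 9.03). Of the 14 summits of q21.11, 8 lay in TERF1.

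**Figure D3:**
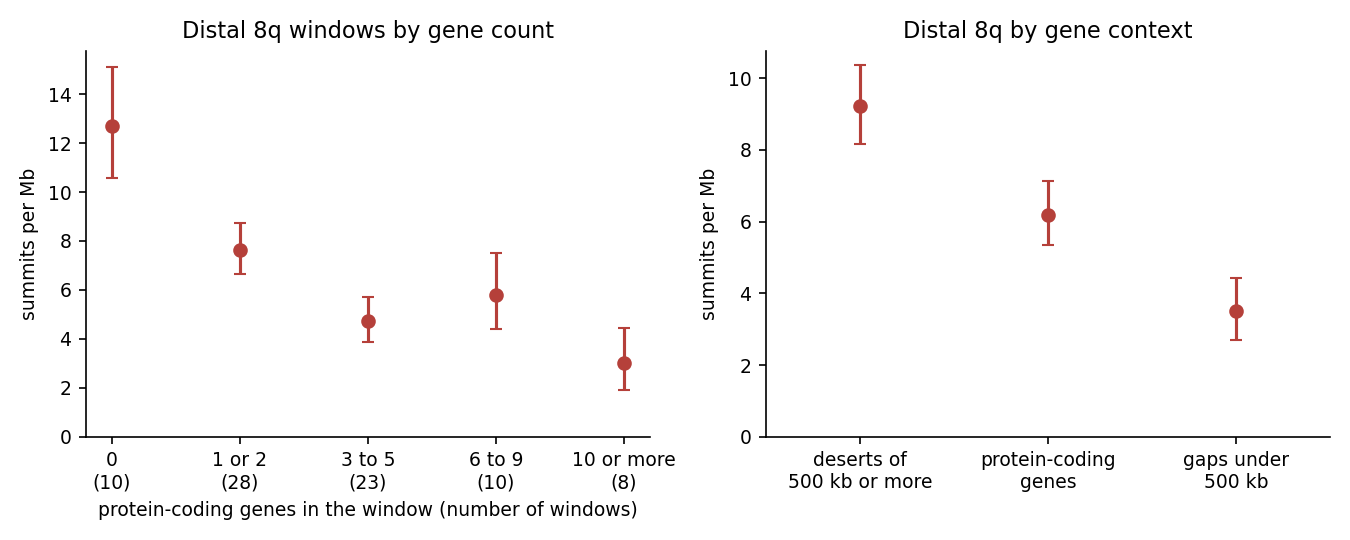
Summits per Mb on distal 8q with exact Poisson 95% intervals. Left, full 1 Mb windows grouped by the number of protein-coding genes with their midpoint in the window. The value was 3.0 in windows of 10 or more, against 12.7 in windows without such a midpoint. Right, deserts of 500 kb or more (9.22), protein-coding genes (6.19) and shorter gaps between protein-coding genes (3.49).

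Deserts, taken as stretches of 500 kb or more between protein-coding genes, held 275 summits in 29.8 Mb, or 9.22 per Mb (8.16 to 10.4), against 5.16 (4.55 to 5.83) in the rest of distal 8q. The ratio was 1.79 (1.5 to 2.13). Among the 13 strong peaks alone, 7 of them at TERF1, it was 0.748 (0.168 to 2.68). Deserts on the other arms showed a like ratio, 1.81 (1.68 to 1.95), with 1.57 and 0.864 summits per Mb inside and outside them. The excess of distal 8q over the other arms was accordingly of like size in deserts (5.89, 5.14 to 6.72) and outside them (5.97, 5.22 to 6.81), and the interval of each ratio includes the other. Low density marked the shorter gaps between genes more than the genes themselves. Gaps under 500 kb had 3.49 summits per Mb (2.71 to 4.44), and protein-coding gene bodies had 6.19 (5.34 to 7.13).

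The 27 deserts differed widely. The 4 longest held 134 summits, 25.1% of the total, in 11.3% of the length. That between CSMD3 and TRPS1, a zinc finger repressor gene of skeletal development, had 41 summits in 1.97 Mb, or 20.8 per Mb (14.9 to 28.2), the highest of all deserts. That between KCNV1 and CSMD3 had 34 summits (15.1 per Mb, 10.5 to 21.1), and that between SNX16 and RALYL had 35 (15, 10.4 to 20.8). The longest, 2474 kb between KHDRBS3 and FAM135B, had 24 summits (9.70, 6.22 to 14.4). Those between PEX2 and PKIA, between MMP16 and RIPK2 and between HAS2 and ZHX2 had 12, 15 and 7 summits.

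The deserts between TRIB1 and KHDRBS3, a stretch that holds MYC, each had a density below the mean of distal 8q, 6.67 per Mb. For those nearest MYC, between TRIB1 and LRATD2, LRATD2 and POU5F1B, and MYC and GSDMC, the interval of each includes that mean. The desert between MYC and GSDMC had 10 summits in 1.96 Mb (5.10 per Mb, 2.44 to 9.37). The desert between LRATD2 and POU5F1B, on the other side of MYC, had 2 in 0.855 Mb, that between ADCY8 and EFR3A had 1, that between ST3GAL1 and ZFAT had 2 and that between ZFAT and KHDRBS3 had 1. Counting that between TRIB1 and LRATD2 as well, these 6 deserts had 22 summits at 3.48 per Mb (2.18 to 5.27), whereas the other 20 up to 141 Mb had 253 at 11.1 per Mb (9.77 to 12.5). This grouping was made after the values were seen. Its members from ADCY8 outward start at 131040910 or beyond, whereas MYC ends at 127742951.

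**Figure D4:**
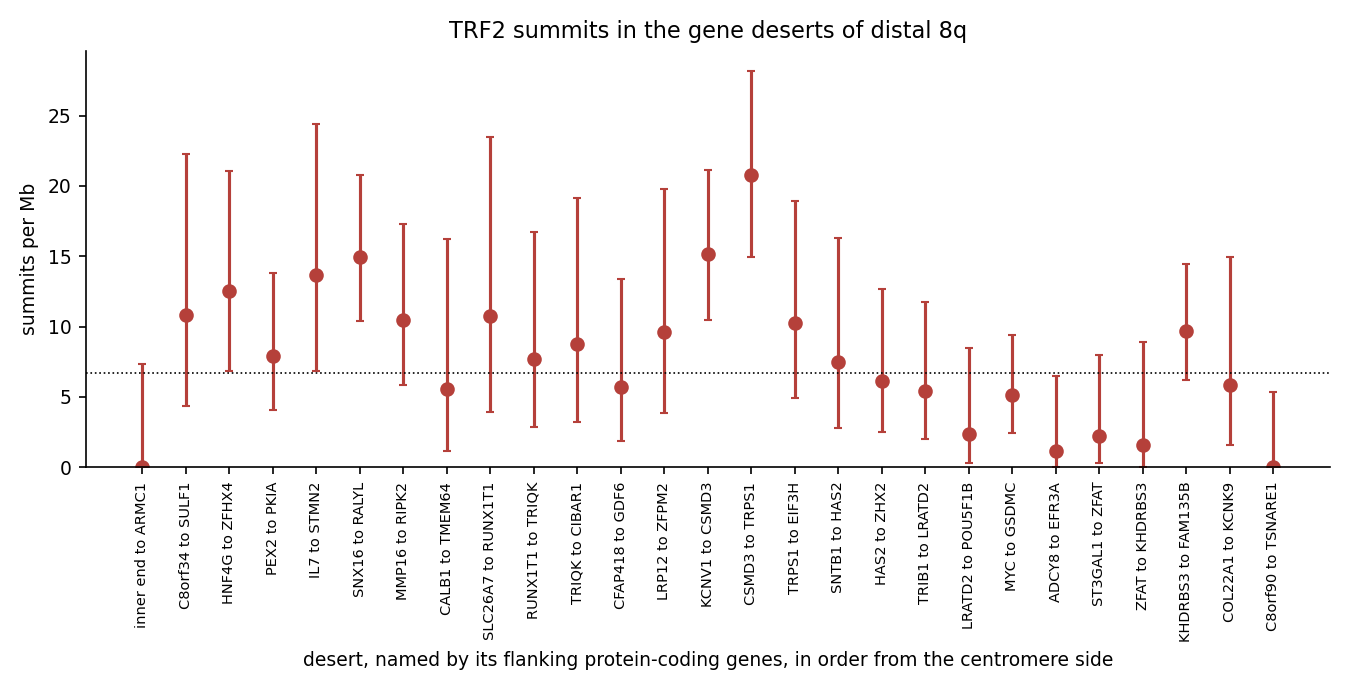
Summits per Mb in each of the 27 deserts of distal 8q, in order from the centromere side, with exact Poisson 95% intervals; the dotted line is the mean of distal 8q, 6.67. Values reach 20.8 between CSMD3 and TRPS1 and are low from TRIB1 to KHDRBS3.

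Gene bodies as a whole, non-coding genes included, held 281 summits (52.6%, 48.3% to 56.9%) and covered 56.2% of the length, so their share was 0.936 of an even spread (0.859 to 1.01). Gene ends were sparser over all peaks, but not beyond counting error among those with a q-value under 0.05, where the ratio to an even spread was 0.836 (0.560 to 1.19). Over all peaks, within 3 kb of either end of any gene lay 45 summits (8.43%, 6.21% to 11.1%), and these windows cover 12.8% of the length, a ratio of 0.660 (0.487 to 0.871). For the 13 strong peaks, 5 of them at gene ends, the ratio was 3.01 (1.09 to 5.36). Of these 13, 7 lay in TERF1, so the interval counts neighbouring peaks of a single gene as separate. Around the ends of protein-coding genes there were 12 summits, a ratio of 0.482 (0.250 to 0.834). Exons, introns, untranslated regions and the direction of each gene were not analysed here.

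Of the 366 protein-coding genes of distal 8q, 74 (20.2%) had a summit within the gene or 3 kb of it, 43 of them with 1 and 16 with 4 or more. Of all 1246 annotated genes 155 (12.4%) had one. The share followed gene length, from 1.09% of the shortest length class of protein-coding genes (4 classes of nearly equal number) (up to 9.71 kb) to 53.3% of the longest (from 102 kb). Summits per Mb ran from 1.10 (0.0279 to 6.14) to 6.59 (5.60 to 7.69) over the same classes. A longer gene has more room to hold a summit. Position also differs between the classes, since 100 of the 366 genes, many of them short, lie beyond the last summit. Length and position were not separated here.

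CSMD3 had the most summits of any gene, 18 in 1214 kb, or 14.8 per Mb (8.74 to 23.3). All 18 were of 5 to 8 reads and none had a fold above 4.39. RALYL, an RNA-binding protein gene, followed with 17 summits in 739 kb (22.8 per Mb, 13.3 to 36.5), and C8orf34 with 12 in 489 kb (24.3, 12.5 to 42.4). For these 3 genes even the lower limit was above the mean density of distal 8q, as for some others such as TERF1 (76.3) and PREX2 (7.57). The genes were picked for their counts, which the intervals do not allow for. VPS13B, a gene of vesicle traffic, and RIMS2, a scaffold gene of the presynaptic active zone, had 8 summits each, at 9.19 and 10.5 per Mb.

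The next genes had 4 to 6 summits. ZFPM2, a cofactor gene of GATA factors in the heart, CPQ, a carboxypeptidase gene, and PREX2 had 6 each, and EYA1, a phosphatase and coactivator gene of ear and kidney development, had 5. CNGB3, a cone photoreceptor channel gene, ANGPT1, which encodes a ligand of the endothelial receptor TIE2, XKR9, SLC26A7, an anion transporter gene, NCOA2, a nuclear receptor coactivator gene, and PKHD1L1 had 4 each. DNAAF11, TBC1D31, STAU2, a double-stranded RNA-binding protein gene, and CNBD1 had 3. Apart from TERF1 the strongest peak of any of these genes had a fold of 4.88, and none was strong.

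Of the 30 longest protein-coding genes 25 had a summit (83.3%, against 20.2% of all), as longer genes have more room for one. Their pooled density was 8.27 per Mb (6.85 to 9.90), against 4.22 (3.34 to 5.27) in the other 336 genes. Those 336 include the genes of the outer end without peaks. ASAP1, a GTPase-activating protein gene of 392 kb, had 0 summits, as had KCNQ3, a neuronal potassium channel gene of 360 kb, ZFAT of 355 kb, COL22A1, a collagen gene of 326 kb, and CPA6, a carboxypeptidase gene of 324 kb. TRAPPC9, of 731 kb, had 1 (1.4 per Mb, 0.0344 to 7.56). The interval of each of these 6 genes reached beyond the mean density of distal 8q. KCNB2, another potassium channel gene, had 1 peak of fold 5.37 and 10 reads.

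**Figure D5:**
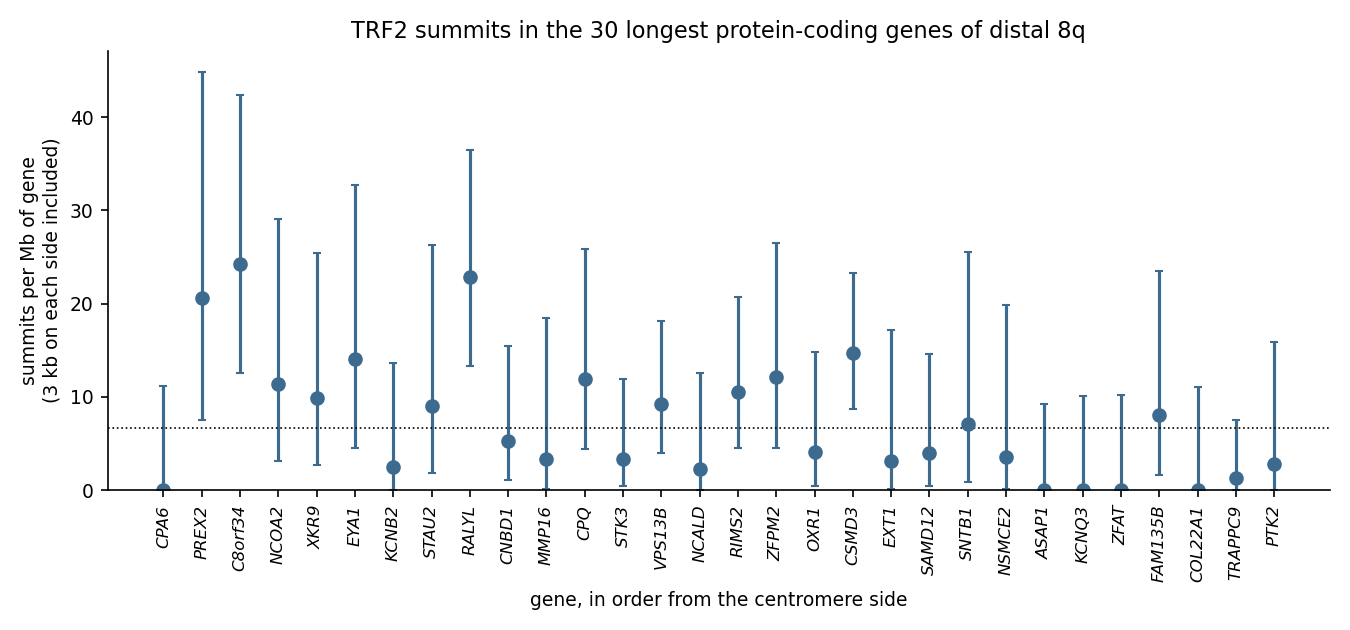
Summits per Mb in each of the 30 longest protein-coding genes of distal 8q, in order from the centromere side, with exact Poisson 95% intervals; the dotted line is the mean of distal 8q, 6.67. C8orf34 and RALYL stand highest, at 24.3 and 22.8.

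Among non-coding genes, named here after their values were seen, LOC105375630 had 7 summits in 560 kb, and LINC01592 and LOC102724858 had 4 each. Of 457 long non-coding RNA genes 69 (15.1%) had a summit, of 322 pseudogenes 9 (2.80%), of 55 miRNA genes 1 (1.82%) and of 23 small nucleolar RNA genes 1 (4.35%), against 12.4% of all genes. The last 3 classes are short, with median lengths of 0.578, 0.08 and 0.105 kb, against 5.87 kb for all genes. Their densities were 4.61 (2.21 to 8.48), 3.37 (0.0854 to 18.8) and 7.11 (0.180 to 39.6) per Mb. Each interval includes the mean of distal 8q, 6.67, so the low shares are no sign of depletion.

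Of 17 genes of telomeres, replication and repair 5 had a summit (29.4%, against 20.2% of all protein-coding genes). Besides TERF1 and EYA1 they included RRM2B, a ribonucleotide reductase subunit gene (1 summit, fold 3.41), and NSMCE2, a SUMO ligase gene of the SMC5/6 complex (1 summit, fold 2.93). NBN, part of the MRN complex that senses breaks, had none, the nearest lying 12.7 kb away. RAD21, a cohesin subunit gene, RAD54B and ATAD2 also had none, with the nearest 140, 23.5 and 201 kb away.

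Of the 17 genes around MYC only ADCY8, an adenylyl cyclase gene, had summits (5.88%, against 12.4% of all genes), 3 in number with a highest fold of 3.41. The list covered 1.63 Mb at 1.84 per Mb (0.379 to 5.37). The nearest summit to MYC was 474 kb away. PVT1, the non-coding gene next to it, POU5F1B and CCAT1, a non-coding gene overexpressed in colon cancer, had none within 116, 344 and 137 kb.

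Among 6 genes of heparan sulfate and Wnt signalling, 3 had a summit (50%, against 20.2% of all protein-coding genes). These genes were long, with a median of 151 kb against 31.4 kb for all protein-coding genes. In the longest length class 53.3% had a summit, so the share of the list is no sign of enrichment. Its density was 4.12 per Mb (1.12 to 10.6), an interval that includes the mean of the whole stretch, 6.67. RSPO2, which encodes an agonist of Wnt signalling, had 2 with a highest fold of 3.90, SULF1, a heparan sulfate sulfatase gene, had 1 of fold 3.41, and EXT1, a heparan sulfate polymerase gene, had 1 of fold 2.91. SDC2, FZD6 and MTDH had none. The 12 genes of the LY6 family list, such as PSCA, LYNX1 and LY6E, lie in the outer stretch without peaks and had none, against 20.2% of all protein-coding genes and 1.09% of the shortest class, their median length being 3.92 kb. Of 9 fatty acid binding protein and carbonic anhydrase genes FABP12 (fold 4.01) and CA1 (3.41) had 1 each (22.2% of the list). Of 8 epithelial genes HNF4G (3.41), a nuclear receptor gene, and PTK2 (3.90) had 1 each (25%). Both shares are near the 20.2% of all protein-coding genes. FABP5, CA2, GRHL2 and ESRP1 had none.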

How the data were processed

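Chromatin immunoprecipitation with an antibody to TRF2 and its input were sequenced from HCT116 cells, 1 library each. Per the submitters' processing notes the tools included ChIPseeker 1.36.0, HOMER, MACS2 2.1.0 and Bowtie2 2.3.2, on GRCh38 (hg38). For settings, library totals and the handling of duplicate or multiply aligned reads, the sources used here give nothing. Each deposited score equals 10 times the −log10 p, cut to a whole number. The deposited fold is a ratio of immunoprecipitated reads to the background at the summit, with 1 added to each before dividing. At 447 of the 534 peaks of distal 8q this background was the same lowest value, 1.05. Among those peaks the fold therefore varied with the immunoprecipitated reads alone and held no input value particular to the peak. Each deposited −log10 q-value or −log10 p-value likewise comes from the peak caller. The lowest −log10 p was 3.01. They served to filter, rank or describe peaks of the same list only.

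Summit pileups and backgrounds were recovered from fold and p, as the whole number of reads that matches both. All peaks (100%) gave one within 0.001 on −log10 p. Peak numbers ran without a gap, so no row of the list was missing. Bands came from circlize 0.4.16 (R 4.3.3), gene spans from a RefSeq table of GRCh38.p14, whose 33 rows for other sequences listed under chromosome 8 were left out. That table has no strand. Windows began at whole Mb. Coordinates are 1-based. No sequence is shown. Scripts ran in Python 3.11.15 (matplotlib 3.10.9, pandas 2.3.3, scipy 1.17.1, numpy 2.4.6) and were tested on simulated data.

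The members, the gene lists and the tests were chosen with earlier results of these data known. Named items are the 10 peaks of highest fold, all strong peaks, the 8 fullest windows and those with at most 1 summit, the 20 protein-coding genes with most summits, the 30 longest, the 8 longest deserts, and the members of 6 lists with a summit plus up to 4 without. An item that this rule would name is not reported here. Genes named at the outer end, in gaps or beside peaks were added from their position.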

Additional observations from a re-analysis of the deposited data

How the results depend on the processing

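No paired analysis was possible because each group had 1 library. Of 52 other settings, 37 left the value within its 95% interval or, for a count, within 1.5 times. With a q-value under 0.05 the density was 3.16 per Mb, its ratio to the other arms 5.31 and the median fold 3.90. With a −log10 q of 5 or more, which left 13 peaks, the density was 0.162 per Mb and its ratios to the other arms and to the rest of chromosome 8 were 1.11 and 2.32. In this set the ratio of deserts to the rest turned to 0.748 (0.168 to 2.68) and that of gene ends to 3.01, and the gene body ratio was 1.37, with 7 of the 13 at TERF1; the cause was not tested. Without TERF1 there were 6 strong peaks. Counting loci within 10 kb gave 5.85 per Mb. At the minimum background alone the ratio to the other arms was 7.06. The gene end ratio was 0.836 (0.560 to 1.19) with a q-value under 0.05, 0.482 for protein-coding genes and 0.416 within 1 kb, and the desert ratio was 2.14 for deserts of 1 Mb or more. Leaving out the empty length beyond 141 Mb, a choice made after seeing the data, kept density (7.04), desert (1.70), gene body (0.936) and gene end (0.719) ratios within their intervals. The shallowest peaks of distal 8q had 5 reads, so sites with fewer were not detectable at this depth.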
